A study of Bos taurus with 60 samples.

Results

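The 28 control heifers of a feeding trial were divided into 21 interferon-high and 7 interferon-low heifers by the abundance of a single transcript, MX2, in their own endometrial libraries. They were the control part of 60 beef heifers, all nulliparous crossbred animals with synchronised oestrus, inseminated with semen of a single sire. The CON_Low and CON_High groups held 14 heifers each and had received a concentrate diet with a rumen-protected palmitic acid supplement for 30 days before insemination. For the 16 days after insemination, CON_High heifers stayed on the high plane of nutrition and CON_Low heifers were restricted to a low plane, and the endometrium of the uterine horn on the side of the corpus luteum was then collected at slaughter. The other 32 heifers had received a fish oil based n-3 PUFA supplement in place of palmitic acid and are used here for comparison alone. By the label of each sample 15 of them were PUFA_Low and 17 were PUFA_High, whereas the general protocol text of the labels gives these sizes the other way round, and the sample labels were followed. No label gives the pregnancy status of a heifer, and the classes below are classes of MX2 abundance, not of pregnancy.

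In cattle, the elongating conceptus secretes interferon tau, a type I interferon that acts on the uterine lining around the time of pregnancy recognition. Binding to the interferon receptor switches on a large group of interferon-stimulated genes. MX2 is a member of this group and encodes a dynamin-like GTPase with antiviral activity. In the ruminant endometrium, interferon tau is known to keep the oxytocin response and the luteolytic release of prostaglandin F2α in check, so that the corpus luteum persists. Interferon-stimulated genes also answer to other interferons, such as those made during infection.

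The class of each heifer was read from MX2 (ENSBTAG00000008471) as log2(CPM + 1), where CPM is the number of its counts per megaread counted on genes in the library, with the limit at 5.5. Among interferon-high control heifers this value had a lowest, median and highest of 7.85, 10.1 and 11.2 (n = 21). Among interferon-low control heifers it had a lowest, median and highest of 1.80, 3.36 and 3.78 (n = 7). No control heifer lay near the limit. The nearest below was CON_Low replicate 8 at 3.78 and the nearest above was CON_Low replicate 12 at 7.85, so that limits of 4.5 or 6.5 gave the same classes. As raw reads, the interferon-low heifers had 30 to 161 counts on MX2 and the interferon-high heifers 2353 to 27468. MX2 was therefore detected in every heifer, and the 2 ranges were far apart. These values chose the classes and are given as a description.

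**Figure D1:**
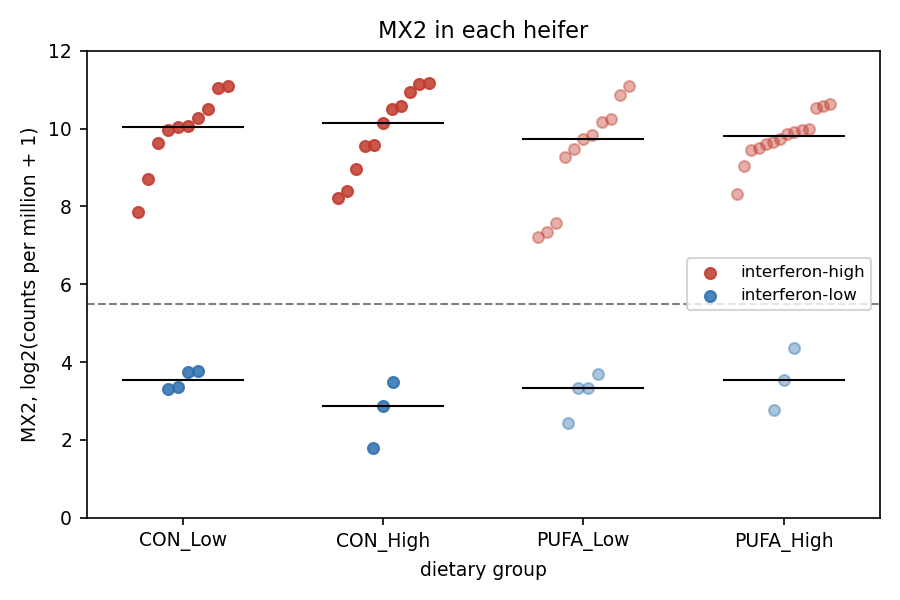
MX2 abundance, as log2(CPM + 1), of each of the 60 heifers by dietary group, with points of a class ordered by value, the class median as a bar and the limit of 5.5 as a dashed line. All 28 control heifers (darker points) lie either between 1.80 and 3.78 or between 7.85 and 11.2.

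The planes of nutrition held the classes in similar numbers. CON_Low had 10 interferon-high and 4 interferon-low heifers, and CON_High had 11 and 3 (two-sided Fisher's exact test, p = 1). With so few heifers only a very unequal split could have been detected. Each sample label further carries a library code, with 6 different prefixes among the control heifers that no source explains. Interferon-low heifers occurred under 4 of these and were absent under the prefixes JE1, with 5 heifers, and JE3, with 4 heifers, a split within the range of chance (permutation test with 100000 resamples, p = 0.457). Total counts ranged from 9712703 to 13306629 in interferon-high and from 10032791 to 12990212 in interferon-low heifers. The 100 genes most abundant over the whole series took 21.5% ± 2.59 of the counts (SD, n = 21) in the first class and 23.0% ± 2.27 (SD, n = 7) in the second. The ranges of both measures overlapped between the classes.

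The class difference was mainly a gain of transcripts. Of 14351 genes tested, 771 were called (5.37%), of which 559 were more abundant in interferon-high heifers (3.9% of genes tested) and 212 were less abundant (1.48%), with plane as a block in edgeR's quasi-likelihood model. The call required a fold change over 1.5 together with a p-value under 0.10 after Benjamini-Hochberg adjustment. Because the heifers were classed by a transcript from the same libraries, genes that move with MX2 had to differ, so these counts describe the transcripts that go with MX2 and no p-value is given for a gene. With the replicate number of the labels as a block, which does not pair the heifers, the counts were 319 and 29. The tissue is a mixture of cells, and fewer cells of a type cannot be told apart from less RNA per cell.

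The 2 directions differed in size as well as in number. Among the 559 genes higher in interferon-high heifers the median log2 fold change was 1.18, whereas among the 212 lower genes it was -0.82, beside -0.02 over all tested genes. A fold change above 2 was found for 347 higher and 61 lower genes. Above 4 there were 124 higher and 6 lower genes, and above 8 there were 57 higher genes (0.397% of genes tested) and 1 lower gene. At an adjusted p-value under 0.001, which the methods of the study name, 162 higher and 6 lower genes were left. The values of the 2 classes did not overlap at all for 92 genes (0.641% of genes tested), each of them higher in every interferon-high than in every interferon-low heifer. No gene (0%) was lower in every interferon-high heifer.

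**Figure D2:**
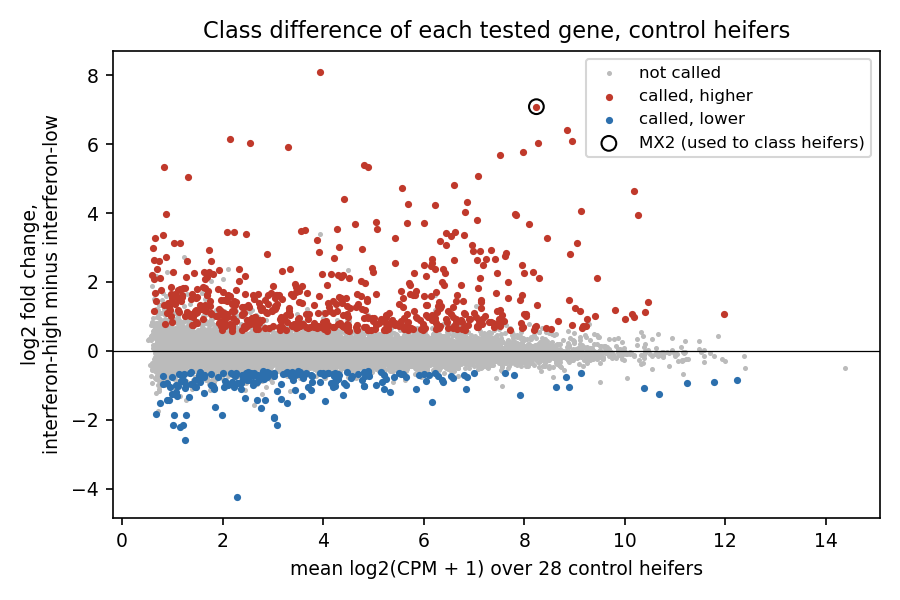
Log2 fold change of interferon-high over interferon-low control heifers against the mean log2(CPM + 1) over the 28 heifers, a point for each of the 14351 tested genes. The 559 called higher genes (red) reach far larger fold changes than the 212 called lower genes (blue), and MX2, which defined the classes, is circled.

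The 57 genes above 8-fold, MX2 among them, were not all silent in interferon-low heifers. Their mean there was under 1 CPM (from here on also scaled by TMM factors) for 14 genes, between 1 and 10 CPM for 17 and at least 10 CPM for 26. The classes did not overlap for 40 of the 57. Without MX2, the other 56 genes together held a lowest, median and highest of 763, 1092 and 1272 CPM in interferon-low heifers. In interferon-high heifers the same sum had a lowest, median and highest of 6458, 20959 and 32466 CPM. The sum was thus several times higher in the weakest interferon-high heifer than in the strongest interferon-low heifer. The whole set of 559 higher genes took a median of 7.25% of all counts in interferon-high and 2.40% in interferon-low heifers, with ranges of 3.77% to 11.0% and 2.04% to 2.82%. Genes of these sets were chosen by the class difference, so the sums describe its size and do not test it.

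The counts carry Ensembl identifiers without names, and the gene table at hand pairs none of its 37063 genes with one. MX2 is therefore the only gene named, and the 2 higher and 2 lower genes with the smallest p-values are given by identifier. Markers of epithelium, stroma, leukocytes and the conceptus, the parts of the interferon pathway and the luteolytic genes could not be looked up for the same reason.

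ENSBTAG00000039861 was higher in the interferon-high heifers. It had a lowest, median and highest of 51.7, 71.8 and 103 CPM in the 7 interferon-low heifers and of 482, 1226 and 2087 CPM in the 21 interferon-high heifers. The classes did not overlap, and the fitted difference was 16.6-fold (log2 fold change 4.05, standard error 0.270). The log2 fold change was 3.99 within CON_Low and 4.12 within CON_High. ENSBTAG00000007881 differed more widely, with a lowest, median and highest of 7.18, 14.9 and 18.0 CPM in interferon-low and of 267, 834 and 1353 CPM in interferon-high heifers. Again no interferon-high heifer came near the interferon-low range, and the difference was 54.4-fold (log2 fold change 5.77, standard error 0.390). Its log2 fold change was 5.65 within CON_Low and 5.92 within CON_High. For comparison, the fitted log2 fold change of MX2, which defined the classes, was 7.08 (standard error 0.563).

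The lower genes behaved differently, as a single heifer carried much of their difference. ENSBTAG00000019772 had a lowest, median and highest of 0.541, 1.99 and 9.54 CPM in interferon-high heifers. In the interferon-low heifers it had 9.19, 31.3, 4.80 and 18.3 CPM in CON_Low replicates 4, 8, 11 and 13, and 7.13, 265 and 20.6 CPM in CON_High replicates 5, 9 and 14. The classes overlapped, since CON_Low replicate 1 at 9.54 CPM lay above 3 interferon-low heifers, and CON_High replicate 9 stood far above all others. The log2 fold change was -4.22 (standard error 0.499) and became -2.66 without CON_High replicate 9. ENSBTAG00000016412 had a lowest, median and highest of 0.855, 2.16 and 4.43 CPM in interferon-high heifers. In the interferon-low heifers it had 3.16, 4.77, 5.94 and 2.18 CPM in CON_Low replicates 4, 8, 11 and 13, and 7.23, 31.8 and 7.45 CPM in CON_High replicates 5, 9 and 14. The same heifer was again the highest, and the log2 fold change of -1.85 (standard error 0.288) became -1.17 without it.

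**Figure D3:**
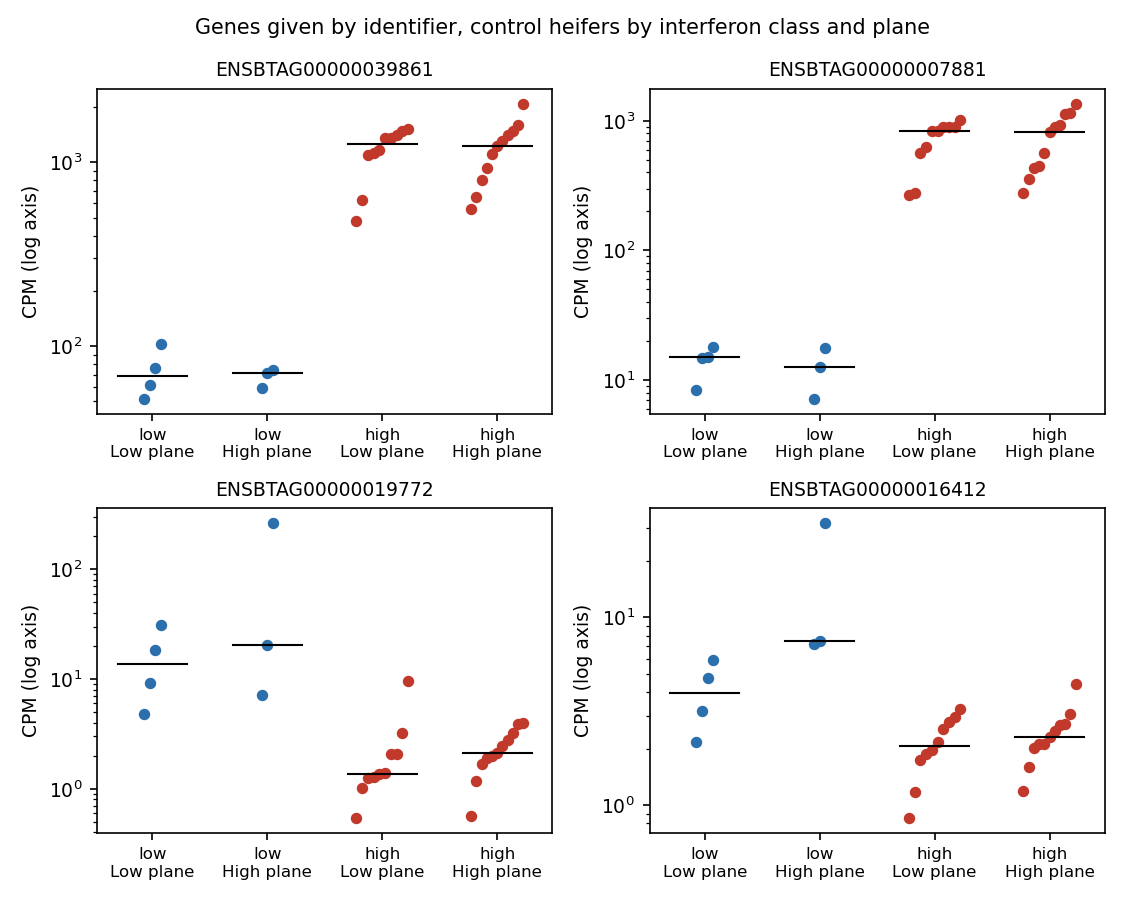
CPM on a log axis of the 2 higher (upper panels) and 2 lower genes (lower panels) given by identifier, for each of the 28 control heifers by interferon class and plane, with points ordered by value and medians as bars. The classes are separate in the upper panels and overlap in the lower panels, where CON_High replicate 9 reaches 265 and 31.8 CPM.

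This heifer, which also had the lowest MX2 of all control heifers, held the highest value of 100 of the 212 lower genes. An interferon-low heifer held it for 196 of the 212, and the next most frequent was CON_High replicate 14, with 29 genes. The 212 genes were called for being higher in interferon-low heifers, so the 196 follow largely from that choice. How often each heifer held the highest value over all tested genes was not counted. CON_High replicate 9 also had the fewest genes with a count among the control heifers, 16269. Without CON_High replicate 9, 114 lower and 567 higher genes were called in place of 212 and 559. Of the genes called without it, 92 lower and 476 higher genes were also called with all heifers. The 100 genes most abundant over the whole series took 25.8% of its counts, the highest share among interferon-low heifers. With this share as a covariate over the 28 control heifers, 162 lower and 529 higher genes were called. The part of this share in the lower genes of this heifer was not tested separately. With any other control heifer left out, between 173 and 280 lower genes were called, and between 470 and 626 higher genes over all 28 fits.

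The interferon-high heifers formed no uniform group, and the larger differences followed the amount of MX2 among them. For the 56 genes above 8-fold other than MX2, the standard deviation of log2(CPM + 1) had a median of 0.83 among interferon-high and 0.42 among interferon-low heifers. Over all tested genes the medians were 0.32 and 0.31. With MX2, 14 of the 57 genes had an interferon-low mean under 1 CPM and 17 between 1 and 10 CPM. Adding 1 before the logarithm narrows the spread at such low values, so 0.83 and 0.42 are not on equal terms. The lowest interferon-high value belonged to CON_Low replicate 12, CON_High replicate 8 or CON_High replicate 7, the 3 interferon-high heifers with least MX2, for 49 of the 56 genes. CON_High replicates 1 and 6, the 2 heifers with most MX2, held the highest value for 20 and 13 of them. Across the 21 interferon-high heifers, Pearson's r of these genes with MX2 on the log2(CPM + 1) scale had a median of 0.89, with a range of -0.13 to 0.96. The median was 0.66 for the called higher genes, -0.39 for the called lower genes and -0.02 for all tested genes. These correlations share libraries and scaling and are given as a description.

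**Figure D4:**
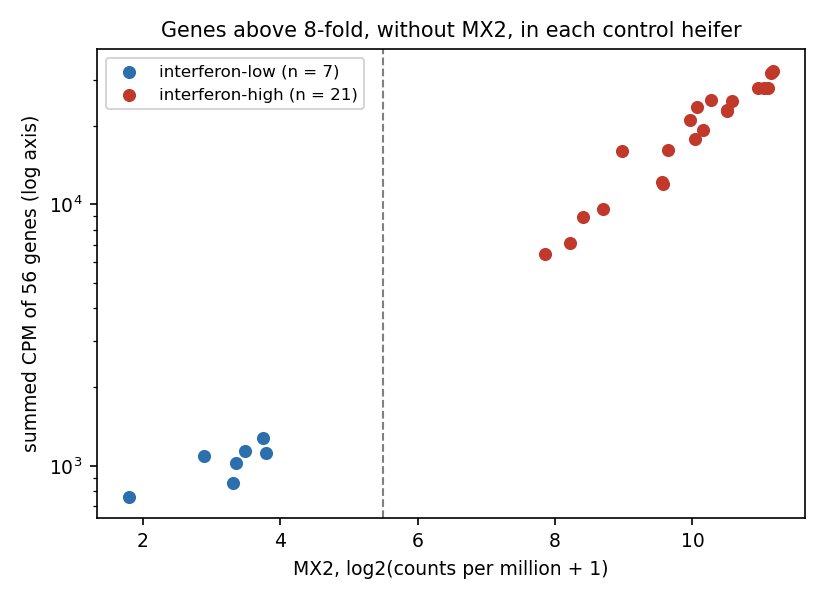
Summed CPM, on a log axis, of the 56 genes above 8-fold other than MX2 against MX2 abundance, a point for each of the 28 control heifers, with the limit of 5.5 as a dashed line. The 7 interferon-low heifers lie between 763 and 1272 CPM, and the 21 interferon-high heifers rise from 6458 to 32466 CPM as MX2 increases.

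The genes most like MX2 within the interferon-high class were nearly all among the called higher genes. An r above 0.9 with MX2 over the 21 heifers was found for 64 genes, of which 63 were called higher and 23 were above 8-fold. Over all tested genes, 3.9% were called higher and 0.397% were above 8-fold. The 10 closest had an r of 0.96 to 0.97 and all 10 were called higher, 6 of them above 8-fold. The calls came from classes cut on MX2 itself, so this overlap was largely given in advance and is a description. ENSBTAG00000039861 was the seventh closest. Its r was 0.961 and its Spearman's rho 0.966 (n = 21), and r was 0.940 without the 2 heifers farthest from the median of MX2. ENSBTAG00000007881 gave r = 0.955 and rho = 0.922, and r = 0.933 without those 2 heifers. Of the lower genes, ENSBTAG00000019772 gave r = 0.315 and rho = 0.301, and r = 0.262 without the 2 heifers. ENSBTAG00000016412 gave r = -0.111 and rho = -0.025, and r = -0.395 without them. All 4 genes had been chosen by their difference between classes cut on MX2, so these values are a description without a test.

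Whether the class difference itself depended on the plane of nutrition was tested as an interaction, since plane was not used to class the heifers. Of 14700 genes, 0 were called (0%, edgeR's quasi-likelihood test, smallest adjusted p = 0.998), 608 had an unadjusted p-value under 0.05, and DESeq2 called 3. The 608 were fewer than chance alone would give on average at this limit. Without CON_High replicate 5 there were 3 calls and without CON_High replicate 14 there was 1 call. With 3 and 4 interferon-low heifers to compare, small interactions could not be seen. Of the 57 genes above 8-fold, 47 were above 8-fold on both planes, with a median log2 fold change of 3.84 within CON_Low and 4.12 within CON_High. Over all tested genes these medians were -0.01 and -0.03. The 2 lower genes had the wider differences between planes, with -2.76 in CON_Low and -5.38 in CON_High for ENSBTAG00000019772 and -0.91 and -2.67 for ENSBTAG00000016412, though neither passed the adjustment (adjusted p = 0.998 each). CON_High replicate 9 is 1 of the 3 interferon-low heifers behind the high plane values.

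The n-3 PUFA heifers share no library with the control heifers and were classed by the same MX2 limit into 25 interferon-high and 7 interferon-low heifers. MX2 had a lowest, median and highest of 7.20, 9.74 and 11.1 on the log2 scale in the first and of 2.43, 3.34 and 4.36 in the second. In them, 947 genes were called higher (6.6% of 14347 tested) and 613 lower (4.27%). All 57 genes above 8-fold in control heifers were called higher in n-3 PUFA heifers, 43 of them again above 8-fold, and their median log2 fold change was 3.66 there and 3.80 in control heifers. Genes called higher in both numbered 433, which is 77.5% of the control and 45.7% of the n-3 PUFA list. Genes called lower in both numbered 91, or 42.9% of the control and 14.8% of the n-3 PUFA list. A single gene was called in opposite directions. MX2, which defined the classes in both supplements, is among the 57 and the 433 genes. Genes that move with MX2 had to differ in both supplements, so these shared counts are a description.

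Both higher genes given by identifier were called in n-3 PUFA heifers too, and their interaction with supplement did not pass (edgeR, adjusted p = 0.883 and 0.993). The log2 fold change of ENSBTAG00000039861 was 3.85 (standard error 0.284) and that of ENSBTAG00000007881 was 5.78 (standard error 0.459). ENSBTAG00000016412 was called lower there too, at -1.02 (standard error 0.375), though the classes overlapped. It ranged from 1.92 to 11.0 CPM in interferon-low and from 0.404 to 5.37 CPM in interferon-high n-3 PUFA heifers. Only PUFA_Low replicate 10, at 8.27 CPM, and PUFA_High replicate 15, at 11.0 CPM, lay above the interferon-high range. ENSBTAG00000019772 was not called in n-3 PUFA heifers, at -1.09 (standard error 0.491), against -4.22 in control heifers. The 8.59-fold difference between these fold changes (standard error 0.789 on the log2 scale) did not pass the adjustment either (edgeR's interaction test, adjusted p = 0.128). Without CON_High replicate 9 it was 2.96-fold (edgeR, adjusted p = 0.848). The 4 genes were chosen by their p-values in the same control heifers that this interaction uses. A weaker fold change in n-3 PUFA heifers could come from that choice alone, so no conclusion is drawn from these tests.

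**Figure D5:**
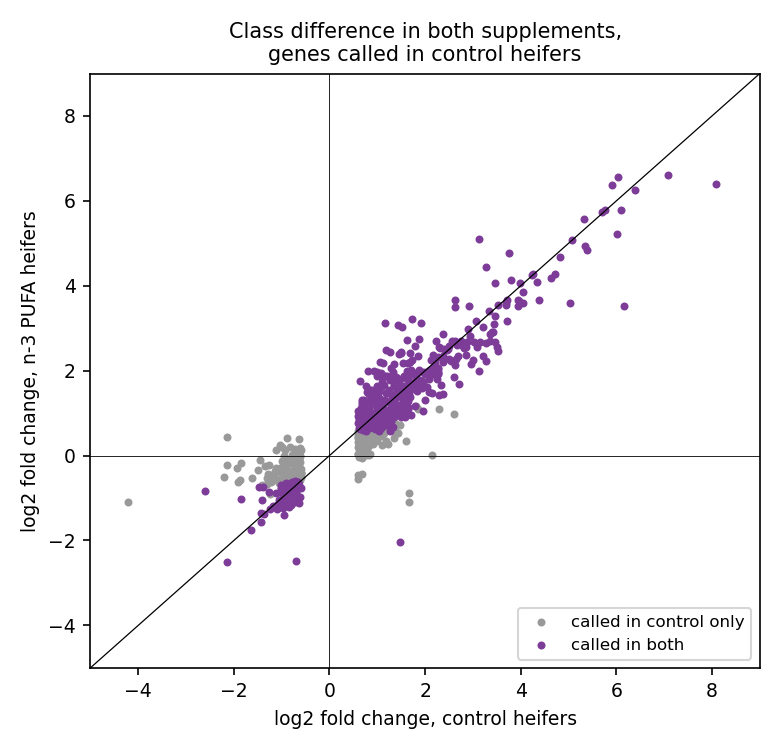
Log2 fold change of interferon-high over interferon-low heifers in n-3 PUFA against control heifers, for the genes called in control heifers that were tested in both, with the line of equal values. Of 555 higher genes, 547 lie above 0 in n-3 PUFA heifers, and of 210 lower genes, 195 lie below 0. The median over all genes tested in n-3 PUFA heifers was -0.01. Genes that move with MX2 had to share their direction, so these counts are a description. MX2, which defined the classes on both axes, is among the higher genes.

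The difference between the supplements was tested over all 60 heifers, again with classes cut at the same limit. Of 14647 genes, 15 were called (0.102%), and 1144 had an unadjusted p-value under 0.05. The 1144 were more than chance alone would give on average at this limit, though genes vary together and this number can vary widely. None of the 15 was among the 57 genes above 8-fold in control heifers. In 14 of the 15 the class difference was more negative in n-3 PUFA heifers. Only 1 of the 15 was called in control heifers, whereas 13 were called in n-3 PUFA heifers, all 13 of them lower in interferon-high heifers. ENSBTAG00000018481, 1 of the 15, was not tested in the fit of n-3 PUFA heifers alone. For 2 of the 15, at most 3 of the 60 heifers held the larger part of the counts. The count was not stable, with 1 call without PUFA_High replicate 11, 85 calls without PUFA_High replicate 15 and 1 call once the prefix of the library code was blocked.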

How the data were processed

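Single-end mRNA libraries from the endometrium of each heifer were processed by the authors, who aligned reads to UMD3.1 with TopHat2 2.0.9 and counted them on genes with HTSeq. The authors deposited raw counts, without normalization, in 1 table of 24616 Ensembl genes. Strand setting and handling of reads with several positions are not given in the sources used here, so the share of MX2 reads that could belong to its paralog MX1 is unknown. Groups follow the labels.

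The members and lists were chosen with earlier results of these data known. Counts of the 28 control heifers were filtered by filterByExpr, scaled by TMM and fitted with edgeR 4.0.16 (R 4.3.3) as plane plus class, and interactions with 1 coefficient per class and plane, or per class and supplement with plane within supplement. DESeq2 1.42.0 was an alternative. Each log2 fold change divided by the root of its F statistic gave the standard error. The model was tested on simulated data. Total counts ranged from 9712703 to 13306629 per control heifer, which sets the precision of low counts.

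Genes were to be named from gene lists and by size of change. As no table pairs identifiers with symbols, MX2 and the 2 higher and 2 lower genes with the smallest p-values are given, and the planned gene lists and marker lists were not run. The correlations of these 4 genes with MX2, given without a test, were added after the values had been seen. Over 182 pairs of control libraries of a dietary group, chi-square divided by the number of genes was at least 17.4, so all libraries differed beyond sampling noise. Each library is 1 heifer.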

Additional observations from a re-analysis of the deposited data

Results flagged for a closer look

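CON_High replicate 9 stood apart from the other 6 interferon-low control heifers in both lower genes given by identifier. ENSBTAG00000019772 had 265 CPM in it and at most 31.3 CPM in the others, a gap of 0.898 of the range of the 7 heifers. ENSBTAG00000016412 had 31.8 CPM in it and at most 7.45 CPM in the others, a gap of 0.822 of the range. CON_Low replicate 1 stood apart among the 10 interferon-high heifers on the low plane, with 9.54 CPM of ENSBTAG00000019772 where the next had 3.21 CPM, a gap of 0.704 of the range. Dixon's limits at 95% were applied to 8 measures in 3 groups of heifers, or 24 cases. Chance would flag about 5% of cases only if the values were normally distributed. The flagged values were CPM without a logarithm, and both genes had been chosen by their class difference. No chance rate is therefore given for these flags, which are a description. The classes were cut on the data and are not groups of the study.

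The class difference differed between n-3 PUFA and control heifers for 15 genes by the interaction test. Which transcripts these are could not be looked up.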

How the results depend on the processing

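The 771 genes called between the classes of control heifers stayed within 1.5 times this number under other scale factors, filters, DESeq2, an adjusted p-value under 0.05, blocking on the library code prefix, a fit over all 60 heifers and either other MX2 limit, and between 649 and 894 with each control heifer left out. They also did so in 2 fits chosen after seeing the data, at 691 with the share of the 100 most abundant genes as a covariate and at 1074 without the 3 interferon-high heifers lowest in MX2 (691 higher and 383 lower). The 212 lower genes alone moved by over 1.5 times in that fit, at an adjusted p-value under 0.05 (137 lower), with at least 10 counts in every library (141 lower) and without CON_High replicate 9 (114 lower). These comparisons concern the size of the list and not its members. Of the 771 genes, 556 were among the 645 called with the library code prefix blocked. In the same way, 569 were among the 592 called with at least 10 counts in every library and 751 among the 854 called by DESeq2. Thresholds changed the count by construction, to 168 at an adjusted p-value under 0.001 (162 higher, 6 lower) and to 1244 without the fold-change limit (741 higher, 503 lower). Equal replicate numbers showed no pairing, as the deviations of same-numbered heifers had a mean correlation of 0.032 and a lowest of -0.296. With the replicate block, 348 genes were called (319 higher, 29 lower). The interaction with plane stayed at 0 calls with this block, though 1711 genes had p under 0.05 before adjustment (edgeR).

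The interaction with plane, 0 in the reported edgeR fit (608 genes had p under 0.05 before adjustment), gave 3 calls with DESeq2 and 0 to 3 with each control heifer left out. Genes with p under 0.05 before adjustment (edgeR) numbered 177 without CON_High replicate 9 and 1248 without CON_High replicate 14. The interaction with supplement, with 15 genes, gave 37 with DESeq2, 8 with at least 10 counts in every library, 9 at an adjusted p-value under 0.05, 0 at 0.001 (edgeR, 1144 genes had p under 0.05 before adjustment) and 1 when blocking on the library code prefix. The cause was not tested. With each of the 14 interferon-low heifers left out, it ranged from 1 to 85 and moved by over 1.5 times in 11 fits, namely without CON_Low replicates 4 and 13, CON_High replicates 5 and 9, PUFA_Low replicates 3, 8, 9 and 10, and PUFA_High replicates 2, 11 and 15. MX2 and the 4 genes given by identifier kept their direction and call in all alternatives in which they were tested. Both lower genes given by identifier had under 5 CPM in some heifers of each class, and the effect of depth on them was not tested. Among all called genes, 76 higher genes had an interferon-low mean under 1 CPM, and 17 lower genes had an interferon-high mean under 1 CPM.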
